A study of Mus musculus with 10 samples.

Results

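The genes described here are the serpins, both kininogens and a group of clotting and plasminogen regulators, measured by RNA sequencing in stem cells sorted from mouse bone. They were chosen by symbol, as every gene whose name starts with Serpin together with Kng1, Kng2, A2m, Plat, Plau, Plaur, F3, F13a1, Thbd, Tfpi, Tfpi2 and Pros1. The rule found 37 of the 15078 genes in the deposited table, of which 25 are serpins. The serpins fell into clade A (10 genes), clade B (9 genes), clade E (2 genes) and 1 gene each of clades F, G, H and I. The mouse annotation holds 61 protein-coding serpin genes, and those without a row were not analysed here. Of the 37 genes, 31 averaged at least 10 across the 10 libraries and were tested, and 26 averaged at least 100.

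The study asked whether stem cells of the periosteum, the membrane around bone, enter the marrow and come to resemble its stroma after a bone is transplanted. All cells were sorted as CD45-Ter119-CD31-CD51+CD200+ and fell into 3 groups. The BM-MSC group (n = 3, mesenchymal stem cells of the bone marrow) and the P-SSC group (n = 3, periosteal skeletal stem cells) came from wild-type mice at steady state with no treatment, and these 6 libraries were shared with another series. The graft BM-MSC group (n = 4) held Tomato+ cells from the marrow of femurs that had been transplanted under the skin of wild-type mice 5 months earlier. The donors of those femurs carried Cre-ER under the Postn (periostin) promoter with a tdTomato reporter (labelled POSTN-CRE), and tamoxifen was given after transplantation. Postn is also used by osteoblasts and fibroblasts, which limits the reporter as a mark of periosteal stem cells. Genotype, tamoxifen, transplantation and time in the graft went together and cannot be told apart. BM-MSC 2+4 and P-SSC 2+5 each combined the RNA of a pair of mice.

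The libraries held 15415421 to 25223295 reads. Values are normalized read counts, which are reads scaled by the size factor of each library. The sums of marrow stroma genes and of periosteal genes followed the labels. The summed level of 6 marrow stroma genes (Lepr, Cxcl12 and others) was 830908 to 1131720 in BM-MSCs and 667905 to 819818 in graft BM-MSCs, against 4579 to 8883 in P-SSCs. The summed level of 6 periosteal and fibroblast genes was 273906 to 518694 in P-SSCs, and at most 9102 in the other libraries. Blood cell genes were seen despite the sort against CD45 and Ter119. Red cell markers, 6 genes, summed to 58706 to 205924 in BM-MSCs, 202 to 1407 in P-SSCs and 1483 to 27755 in the graft. Neutrophil markers are given below. The part of blood cells in the group differences was not tested. Zeros were more frequent in the graft libraries: of genes at 100 or more elsewhere in the graft group, 0.898% to 8.78% were at 0 in 1 library, most in graft BM-MSC 2, against at most 0.363% in the steady-state groups. The 4 graft libraries and P-SSC 4 also held more of the GC-rich genes than the other 5 libraries did. These are bulk samples, so fewer cells of a type and less RNA per cell cannot be told apart.

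Serpins are protease inhibitors that catch their target by a change of shape, and some have lost that activity and act as chaperones or carriers. Kininogens are secreted proteins from which kallikreins release bradykinin, and they also inhibit cysteine proteases. Clotting starts when tissue factor (F3) meets its plasma ligand and ends with fibrin that factor XIII crosslinks, while thrombomodulin and protein S hold thrombin in check. The plasminogen activators Plat and Plau dissolve fibrin and are stopped by clade E serpins. Liver is the main source of many of these proteins, and stromal cells make several of them locally.

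A handful of serpins made up most of the reads. The 37 genes held 2.95% to 3.48% of all values in BM-MSCs, 1.61% to 2.09% in P-SSCs and 1.74% to 2.73% in graft BM-MSCs. Serping1, Serpine2, Serpinf1 and Serpinh1 together held 74.8% to 87.2% of that. Per kb of transcript, Serping1 had the highest mean level of the 37 genes in all 3 groups, at 123683 normalized reads per kb in BM-MSCs, 82748 in P-SSCs and 65793 in graft BM-MSCs. Serpine2 came next in both marrow groups and Serpinf1 in P-SSCs.

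**Figure D1:**
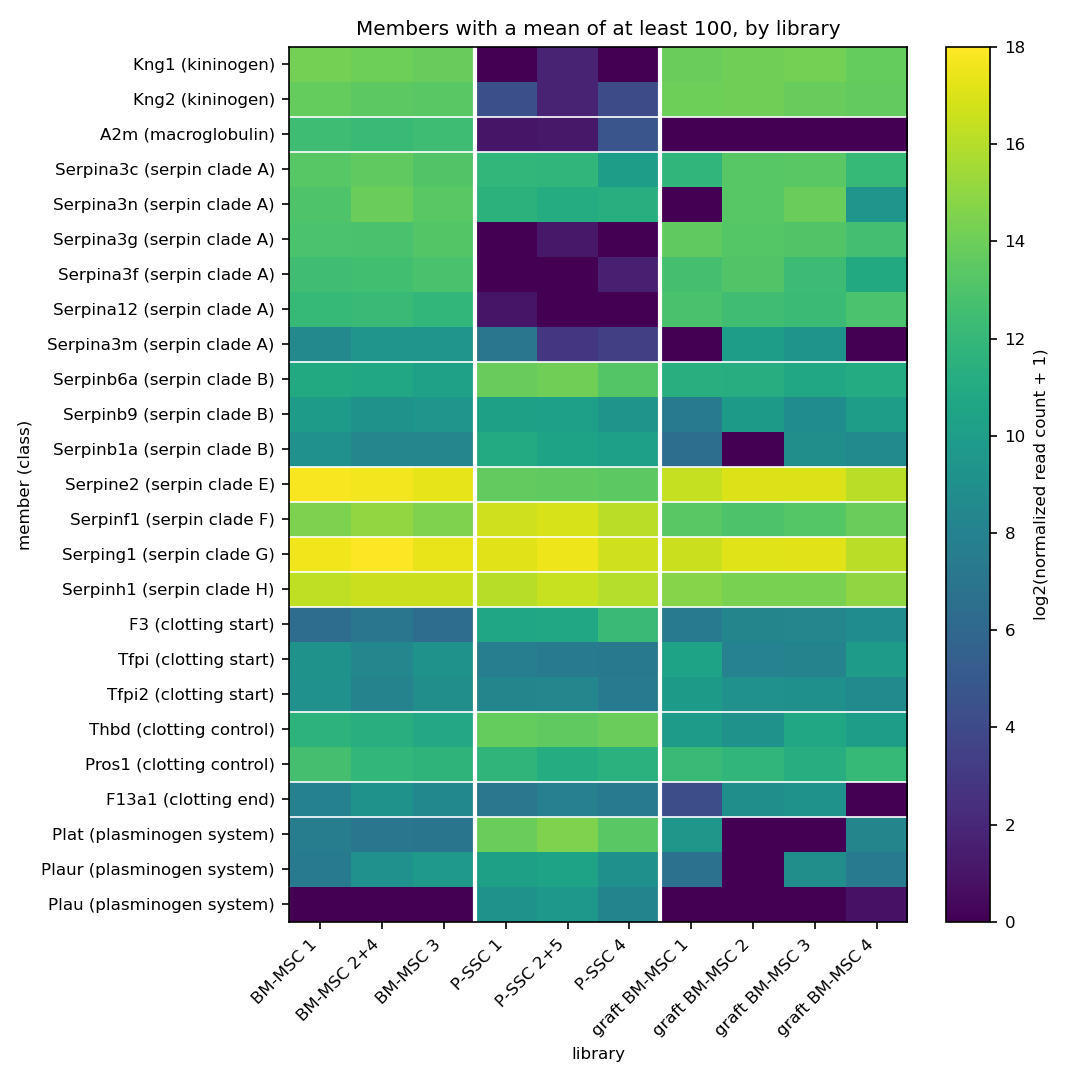
Each row is 1 of 25 genes that average at least 100 (class in parentheses), each column is 1 of the 10 libraries, and the colour gives log2(normalized read count + 1). Kng1, Kng2, Serpina3g, Serpina3f and Serpina12 are bright in both marrow groups and dark in P-SSCs, A2m is bright in BM-MSCs alone, and Plat, Plau and F3 are brightest in P-SSCs.

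Of the 31 tested genes, 16 passed the test between P-SSCs and BM-MSCs (limma, adjusted p under 0.05), where 9.15% of all genes tested passed. Of these, 7 were higher in P-SSCs (4.57% of all genes) and 9 were lower (4.58% of all genes). Between graft BM-MSCs and P-SSCs 16 passed (18.1% of all genes), with 6 higher in the graft (6.08% of all genes) and 10 lower (12% of all genes). Between graft BM-MSCs and BM-MSCs 5 passed (7.67% of all genes). All 5 were lower in the graft (5.06% of all genes) and 0 were higher by limma (2.61% of all genes). At an unadjusted p under 0.05, 2 were higher (8.71% of all genes), and DESeq2 called 2 higher and edgeR 0. Libraries of the groups compared were fully separated for 22 of the 31 genes between P-SSCs and BM-MSCs (30.9% of all genes), 21 between graft BM-MSCs and P-SSCs (26.6%) and 10 between graft BM-MSCs and BM-MSCs (25%). These genes were chosen with such results known, so nothing is read from the shares. The median log2 difference of the 31 genes was -0.63 between P-SSCs and BM-MSCs, where that of all genes was 0.0022. It was -1.26 between graft BM-MSCs and P-SSCs against -0.47 over all genes, and -0.95 between graft BM-MSCs and BM-MSCs against -0.53 over all genes. A correction for the GC content of genes turned the medians over all genes to 0.28 and 0.23 in the comparisons of the graft. Differences of about 1 on the log2 scale between the graft and another group, and some larger ones, therefore depend on the scaling. The comparisons share groups, and each is described by its own values.

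The kininogens were expressed in marrow cells and almost absent from periosteal cells. Kng1 (ENSMUSG00000022875) lies on chr16:23057865-23082078 and Kng2 (ENSMUSG00000060459) on chr16:22985854-23029482 of GRCm38, on opposite strands and within 96.2 kb. Kng1 had normalized read counts of 19103, 16915 and 14232 in the 3 BM-MSC libraries. It had 15137, 17143, 19255 and 13930.2 in the 4 graft libraries, and 0, 2.55 and 0 in P-SSCs. The ranges of both marrow groups overlapped, and every marrow library was far above every periosteal one. P-SSCs held at most 3 reads of Kng1 per library, so the ratio of means was at least 4383-fold for BM-MSCs and at least 4283-fold for graft BM-MSCs, each against the floor of 3 reads per library. Kng1 was known beforehand to be among the largest changes of the graft, and its values are given as a description.

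Kng2 followed the same order of groups. Its normalized read counts were 13867, 11237 and 10621 in BM-MSCs, 16925, 17932, 14103 and 13252 in graft BM-MSCs, and 19.7, 2.55 and 17.4 in P-SSCs. It was lower in P-SSCs than in BM-MSCs by a log2 difference of -10.06 ± 0.57 (SE, adjusted p = 3.53e-06) and higher in graft BM-MSCs than in P-SSCs by 10.45 ± 0.53 (adjusted p = 1.64e-06). Between graft BM-MSCs and BM-MSCs its log2 difference was 0.38, with a 95% confidence interval from -0.79 to 1.56 and an adjusted p of 0.676. The sign turned with a term for the split in GC-rich genes (-0.72). The kininogen genes are near copies, and 17.6% of the 50-base windows of the Kng2 transcript also occur in Kng1, so part of the reads could have come from either. Of 10 hepatocyte markers 7 had no row, Alb among them. The other 3 summed to 0 to 3.95 in BM-MSCs, 0 to 340.2 in P-SSCs and 1.01 to 399.6 in graft BM-MSCs. The part of these markers in the kininogen values was not tested.

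The kinin-related genes of the wider pathway were split between the tissues. Mme (neprilysin), which degrades bradykinin, had normalized read counts of 2721 to 4706 in BM-MSCs and 3526 to 4516 in graft BM-MSCs, against 70.1 to 231 in P-SSCs. It was lower in P-SSCs than in BM-MSCs (log2 difference -4.94, adjusted p = 8.54e-05) and higher in the graft than in P-SSCs (5.23, adjusted p = 3.09e-05). Ace, the other main bradykinin-degrading enzyme, went the other way, with 3117, 4174 and 15211 in P-SSCs and at most 383 in any marrow library. Ace was lower in the graft than in P-SSCs (log2 difference -6.44, adjusted p = 0.00413). The bradykinin receptor Bdkrb1 was detected in P-SSCs, at 54.8 to 105, and was at 0 in all 7 marrow libraries. Of 10 kinin genes in the list 6 were tested. Beside Mme and Bdkrb1, Ace and the carboxypeptidase Cpm passed in 1 comparison, and Bdkrb2 and Prcp in none.

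Clade A, the secreted serpins related to alpha-1-antitrypsin and antichymotrypsin, differed most within itself. Its genes on chromosome 12 form 1 cluster of 23 annotated genes at chr12:103614786-104414329 (GRCm38), and 10 of them had rows. Serpina12 (vaspin, a secreted serpin described in fat tissue), Serpina3f and Serpina3g had the pattern of the kininogens. Serpina3g (ENSMUSG00000041481, chr12:104236245-104241939) had normalized read counts of 7596, 7328 and 9086 in BM-MSCs, 12547, 9999.6, 9038 and 6415 in graft BM-MSCs, and 0, 1.27 and 0 in P-SSCs. Serpina12 (ENSMUSG00000041567, chr12:104028769-104044443) had 4366, 4412 and 3829 in BM-MSCs, 7316, 5762, 5015 and 7661 in graft BM-MSCs, and 1.04, 0 and 0 in P-SSCs. For both genes every P-SSC library was at or below 3 reads. The ratio of means to that floor was at least 2094-fold in BM-MSCs and at least 2486-fold in graft BM-MSCs for Serpina3g, and at least 1099.7-fold and 1685-fold for Serpina12. All 4 graft libraries lay above all 3 BM-MSC libraries for Serpina12, which 25% of all genes tested did in 1 direction or the other, while for Serpina3g the ranges overlapped. Both genes were known beforehand to be among the largest changes of the graft, so no test is given.

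Serpina3f (ENSMUSG00000066363, chr12:104214544-104221129), the neighbour of Serpina3g, had 5681, 6136 and 7321 in BM-MSCs, 6464, 9021, 5213 and 1969 in graft BM-MSCs, and 0, 0 and 1.94 in P-SSCs. The lowest graft value was that of graft BM-MSC 4. It was lower in P-SSCs than in BM-MSCs by a log2 difference of -12.11 ± 0.63 (SE, adjusted p = 2.11e-06) and higher in the graft than in P-SSCs by 11.75 ± 0.59 (adjusted p = 1.59e-06). Between the graft and BM-MSCs its log2 difference was -0.36, with a 95% confidence interval from -1.66 to 0.95 and an adjusted p of 0.728, and the sign turned without graft BM-MSC 4 (0.084) and after the GC correction (0.49).

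The other expressed genes of the cluster were present in periosteal cells as well. Serpina3c (chr12:104146382-104153870) had 10486, 12342 and 8952 in BM-MSCs, 3855, 3737 and 1042 in P-SSCs, and 3712, 10467, 10780.5 and 4283 in graft BM-MSCs. It was lower in P-SSCs than in BM-MSCs (log2 difference -2.09 ± 0.56, SE, adjusted p = 0.0415), a call that was lost in 15 of 24 alternatives, among them the fits without any 1 of the 6 steady-state libraries or without graft BM-MSC 4 (adjusted p from 0.0508 to 0.145). Serpina3n (chr12:104406729-104414329), an antichymotrypsin copy induced in injury, had 8278, 15558 and 10935 in BM-MSCs and 3053, 2232 and 2469.9 in P-SSCs. In the graft it spread from 0 in graft BM-MSC 1 to 710.3, 10107 and 15312 in graft BM-MSC 4, 2 and 3. Serpina3m was likewise split in the graft, at 0, 1041, 628 and 0, with 357, 691 and 676 in BM-MSCs and 129.8, 6.37 and 9.69 in P-SSCs. Its annotation overlaps that of Serpina3k. Neither Serpina3n nor Serpina3m passed the test in any comparison, in a fit that shares its spread with the graft. Both lay lower in P-SSCs than in BM-MSCs without overlap, with ratios of means of 4.48-fold and 11.8-fold. Of all genes tested, 30.9% were so separated in 1 direction or the other. In both genes, graft BM-MSC 2 and 3 were high and graft BM-MSC 1 and 4 low, and Serpina3c had the same libraries high and low. This split was not particular to the cluster, since Serpine2, Serping1 and F13a1 also had it. Serpina3f and Serpina3g did not, with graft BM-MSC 1 above graft BM-MSC 3.

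The alpha-1-antitrypsin copies were low and seen in BM-MSCs. Serpina1d had 117, 533 and 145 in BM-MSCs, 0, 0 and 12.6 in P-SSCs, and 0 in the graft libraries. It was lower in the graft (at least 87.7-fold against the floor, adjusted p = 0.00479) and in P-SSCs (log2 difference -6.46 ± 1.26, SE, adjusted p = 0.00735). edgeR called neither of these differences (adjusted p = 0.0662 and 0.247), and DESeq2 did not call that between P-SSCs and BM-MSCs (adjusted p = 0.0617). Serpina1a and Serpina1b, each detected in BM-MSC 1 alone at 40.7 and 34.5, and Serpina9, at 0 to 84.8 in BM-MSCs and 0 elsewhere, were the other clade A genes. The Serpina1 copies cannot be told apart well, since 33.4% to 42.0% of their 50-base transcript windows occur in another copy. For the Serpina3 genes that share was 2.82% to 9.24%.

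The sequence just before the start site is shown for the kininogen and clade A genes on which the contrast between marrow and periosteum turned, beside Serpina3c and Serpina3n, which were present in both tissues. Each run is the 250 bases before the RefSeq start (GRCm38.p6), read 5′ to 3′ on the strand of the gene, and capitals mark motif matches. The RefSeq start of Kng2 lies 381 bases inside the gene as GENCODE annotates it, so the Kng2 run lies within the coordinates given above.
Kng2 (chr16:23029102-23029351, minus strand): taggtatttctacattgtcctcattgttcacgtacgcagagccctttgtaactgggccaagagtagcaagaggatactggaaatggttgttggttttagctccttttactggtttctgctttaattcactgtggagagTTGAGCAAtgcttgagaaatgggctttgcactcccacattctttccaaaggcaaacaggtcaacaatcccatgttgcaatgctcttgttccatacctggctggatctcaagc
Serpina12 (chr12:104044444-104044693, minus strand): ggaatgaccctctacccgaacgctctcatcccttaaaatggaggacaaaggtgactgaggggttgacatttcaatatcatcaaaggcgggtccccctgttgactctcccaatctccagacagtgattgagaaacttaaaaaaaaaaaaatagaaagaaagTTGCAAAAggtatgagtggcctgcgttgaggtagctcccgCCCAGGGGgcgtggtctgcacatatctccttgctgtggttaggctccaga
Serpina3f (chr12:104214294-104214543, plus strand): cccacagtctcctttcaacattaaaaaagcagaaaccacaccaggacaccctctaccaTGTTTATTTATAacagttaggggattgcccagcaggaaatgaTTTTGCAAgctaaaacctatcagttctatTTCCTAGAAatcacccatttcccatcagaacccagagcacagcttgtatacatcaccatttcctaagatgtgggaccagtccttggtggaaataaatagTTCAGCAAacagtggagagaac
Serpina3g (chr12:104235897-104236146, plus strand): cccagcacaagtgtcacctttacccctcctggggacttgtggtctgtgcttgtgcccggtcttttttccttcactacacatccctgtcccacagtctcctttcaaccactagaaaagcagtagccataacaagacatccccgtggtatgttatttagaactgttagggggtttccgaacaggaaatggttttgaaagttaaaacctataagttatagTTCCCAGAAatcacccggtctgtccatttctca
Serpina3c (chr12:104153873-104154122, minus strand): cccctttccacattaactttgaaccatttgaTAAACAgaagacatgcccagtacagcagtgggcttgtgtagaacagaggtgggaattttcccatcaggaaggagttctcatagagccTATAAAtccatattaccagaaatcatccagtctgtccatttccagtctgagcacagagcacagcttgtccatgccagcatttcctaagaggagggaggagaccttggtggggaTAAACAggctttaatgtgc
Serpina3n (chr12:104406458-104406707, plus strand): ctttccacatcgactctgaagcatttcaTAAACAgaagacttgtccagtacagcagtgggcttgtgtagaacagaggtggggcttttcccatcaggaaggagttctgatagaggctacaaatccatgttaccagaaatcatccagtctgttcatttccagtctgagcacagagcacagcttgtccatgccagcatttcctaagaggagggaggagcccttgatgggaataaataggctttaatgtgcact

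The motifs were searched on both strands. The TATA box was spelled TATAAA and the C/EBP type TTGCNNAA. The EBF type was CCCNNGGG and the forkhead type was TGTTTA. The STAT type was TTCNNNGAA and the AP-1 type was TGANTCA. In the Serpina3f promoter a forkhead and a TATA box match lie next to each other and share no base. Promoters were matched for 27 of the 37 genes. The C/EBP type was in the Kng2, Serpina12 and Serpina3f promoters and in 9.55% of 27025 promoters of all genes. The STAT type was in those of Serpina3f and Serpina3g (7.18% of all), the EBF type in that of Serpina12 (11.7% of all), and the forkhead type in those of Serpina3c, Serpina3f and Serpina3n (12.03% of all). The TATA box was in those of Serpina3c and Serpina3f (12.97% of all), and the AP-1 type (6.87% of all) in none of the 6 shown. No motif was in all 4 promoters of the genes near 0 in P-SSCs. The Serpina3c and Serpina3n promoters aligned over 247 bases with 92.7% identical, and those of Serpina3f and Serpina3g over 152 bases with 82.9% identical. Kng2 aligned with 8 clade A promoters with 70% to 78.9% identical over 172 to 200 bases. The promoters of Serpina3f and Serpina3n, both Serpina3 genes, had 74.6% over 224 bases. Identity was counted over aligned bases without gaps, and no level for unrelated promoters was computed. The Kng2 shares are therefore not read as common sequence. Kng1, A2m, Plat, Plau, Thbd, Serping1, Serpinb1a, Serpina3m and Serpina9 had no entry.

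**Figure D2:**
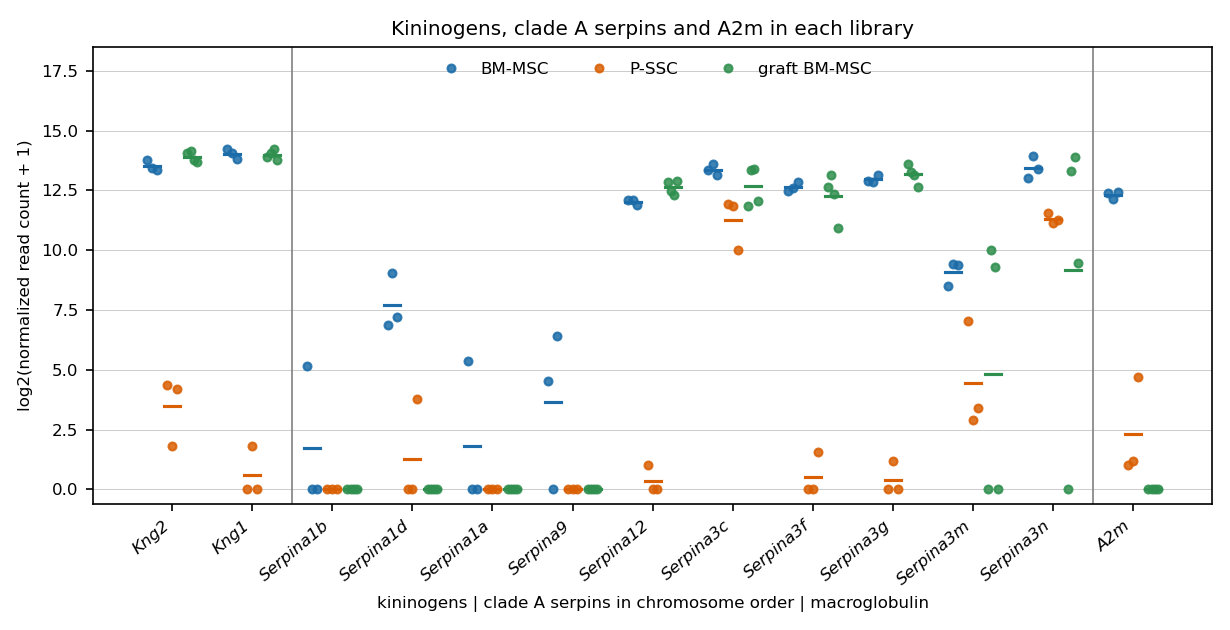
Points are libraries and bars are group means of log2(normalized read count + 1), for the kininogens, the clade A serpins in chromosome order and A2m. Kng2, Kng1, Serpina12, Serpina3f and Serpina3g are at normalized read counts of 1969 or higher in all 7 marrow libraries and at most 19.7 in the 3 P-SSC libraries, while Serpina3c and Serpina3n are present in all P-SSC libraries.

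A2m, which encodes alpha-2-macroglobulin, a secreted cage that traps proteases of every class, differed between both marrow groups as well as between the tissues. It had normalized read counts of 5372, 4564 and 5459 in BM-MSCs, 1.04, 1.27 and 25.2 in P-SSCs, and 0 in each of the 4 graft libraries. The ratio of means of BM-MSCs to the floor of 3 reads in the graft was at least 1699-fold, and the ratio of BM-MSCs to P-SSCs was 559.5-fold. A2m was known beforehand to be among the largest changes of the graft, so this is a description. Cartilage markers were also highest in BM-MSCs. The 5 genes summed to 33799 to 73966 in BM-MSCs, 676 to 1715 in P-SSCs and 0 to 3566 in graft BM-MSCs. In the graft Acan, Col9a1, Matn3 and Cnmd were at 0 in every library. Within BM-MSCs the lowest sum was in BM-MSC 3 and the highest in BM-MSC 2+4, where A2m was at 5459 and 4564. The part of these markers in the A2m values was not tested. Its relative Cd109, a membrane-bound member of the same family, had 49.6 to 228 in BM-MSCs, 442 to 2125 in P-SSCs and 0 in the 4 graft libraries, and was lower in the graft than in BM-MSCs (log2 difference -6.74, adjusted p = 0.00598) and than in P-SSCs (-9.84, adjusted p = 0.000176).

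Clade B serpins act inside cells, and the 3 that passed the test at steady state were higher in periosteal cells. Serpinb6a, an inhibitor of serine proteases in the cytosol, had normalized read counts of 14408, 17225 and 9279 in P-SSCs, 1936, 1751 and 1286 in BM-MSCs, and 2623, 2417, 1671 and 2128 in graft BM-MSCs. It was 8.08-fold higher in P-SSCs than in BM-MSCs (log2 difference 3.01 ± 0.29, SE, adjusted p = 0.000127) and 6.06-fold lower in the graft than in P-SSCs (-2.60 ± 0.27, adjusted p = 0.000133). Both marrow groups overlapped, and every P-SSC library was above every marrow library. Serpinb7 and Serpinb8 were low. Serpinb7 had 55.1, 54.8 and 88.2 in P-SSCs and 0 in all 7 marrow libraries. Serpinb8 had 124, 217 and 232 in P-SSCs, 14.6, 0 and 0 in BM-MSCs and 0 in the graft. Both were higher in P-SSCs than in BM-MSCs (adjusted p = 0.000554 and 0.00779) and than in the graft (adjusted p = 0.000255 and 0.00112), where edgeR did not call Serpinb7 (adjusted p = 0.0538). Neither edgeR nor DESeq2 called them between P-SSCs and BM-MSCs (Serpinb7 adjusted p = 0.141 and 0.102, Serpinb8 adjusted p = 0.345 and 0.160).

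The remaining clade B genes did not pass in any comparison. Serpinb1a, an inhibitor of neutrophil elastase, had 2020.3, 1359 and 1167 in P-SSCs, 547, 324 and 321 in BM-MSCs, and 89.8, 0, 479 and 376 in graft BM-MSCs. Its values in P-SSCs lay above those of all marrow libraries. Neutrophil markers, 7 genes, summed to 28950 to 85988 in BM-MSCs, 12.6 to 110.1 in P-SSCs and 5624 to 106513 in the graft. Their part in the Serpinb1a values was not tested. Prtn3 (proteinase 3), a neutrophil protease that Serpinb1a inhibits, was lower in P-SSCs, at 0 to 4.16, than in BM-MSCs, at 165 to 861 (log2 difference -7.42, adjusted p = 0.00365), and higher in the graft, at 95.5 to 1347, than in P-SSCs (7.62, adjusted p = 0.00143). Serpinb9, an inhibitor of granzyme B, had 993, 577 and 692 in BM-MSCs, 1191, 1122 and 626 in P-SSCs, and 171, 912, 424 and 1084 in graft BM-MSCs, and its groups overlapped. Serpinb2, Serpinb6b, Serpinb6c and Serpinb9b had means below 10 and reached at most 56.4 in any library.

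Clade E serpins inhibit plasminogen activators and thrombin. Serpine2 (protease nexin 1, chr1:79794197-79861180) was the most abundant marrow member after Serping1. It had 237285, 206973 and 166482 in BM-MSCs, 86086, 134169, 134446 and 71609 in graft BM-MSCs, and 13180.1, 12524 and 11408 in P-SSCs. The 3 groups did not overlap, and the order was BM-MSCs, graft BM-MSCs, P-SSCs. It was 16.3-fold lower in P-SSCs than in BM-MSCs (log2 difference -4.03 ± 0.25, SE, adjusted p = 8.83e-06) and 8.32-fold higher in the graft than in P-SSCs (3.06 ± 0.24, adjusted p = 2.48e-05). The difference between the graft and BM-MSCs was -0.97 ± 0.24 (adjusted p = 0.034), which was -0.44 relative to the median gene. That call was lost in 15 of 23 alternatives, which included the GC correction (-0.21, adjusted p = 0.818), and it was lost without any 1 of BM-MSC 1, 2+4 and 3, P-SSC 1 and 2+5, and graft BM-MSC 1 and 4 (adjusted p from 0.0509 to 0.131).

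Serpinf1 (pigment epithelium-derived factor, a secreted protein without protease-inhibiting activity that blocks vessel growth) was the serpin with the highest values in periosteal cells beside Serping1. It had 105658, 124604 and 70932 in P-SSCs, 22083, 33875 and 23222 in BM-MSCs, and 10638, 8127, 9857 and 14881 in graft BM-MSCs. The 3 groups did not overlap. It was 3.77-fold higher in P-SSCs than in BM-MSCs (log2 difference 1.92 ± 0.28, SE, adjusted p = 0.00119) and 9.21-fold lower in the graft than in P-SSCs (-3.20 ± 0.26, adjusted p = 3.27e-05). The graft was lower than BM-MSCs by -1.29 ± 0.26 (adjusted p = 0.0163), which was -0.76 relative to the median gene. This call was lost after the GC correction (-0.35, adjusted p = 0.578), with a term for the split in GC-rich genes (-0.59, adjusted p = 0.821) and without BM-MSC 2+4 (-1.09, adjusted p = 0.0811).

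Serpinh1 (Hsp47, the collagen chaperone of the endoplasmic reticulum) was lower in the graft than in both steady-state groups. It had 81096, 96307 and 98396 in BM-MSCs, 67468, 91020.0 and 65429 in P-SSCs, and 26766, 21347, 20917 and 32772 in graft BM-MSCs. The graft did not overlap either group, while BM-MSCs and P-SSCs overlapped. It was 3.66-fold lower in the graft than in BM-MSCs (log2 difference -1.87 ± 0.19, SE, adjusted p = 0.00151) and 2.95-fold lower than in P-SSCs (-1.56 ± 0.19, adjusted p = 0.000338). The GC content of the Serpinh1 transcript is 56.4% against a median of 49.7% for the genes tested. After the GC correction the differences were -1.01 (adjusted p = 0.069) and -0.59 (adjusted p = 0.227). The call against BM-MSCs was also lost with a term for the split in GC-rich genes. Of its collagen clients, Col1a1 had 373972 to 1005120 in BM-MSCs and 9531 to 33746 in the graft (log2 difference -5.48, adjusted p = 0.000799). Col1a2 was lower in the graft by -3.38 (adjusted p = 0.00123), and both were also lower than in P-SSCs. Col3a1 was highest in P-SSCs, at 433539 to 792758, with 11719 to 34493 in BM-MSCs and 4787 to 31863 in the graft. It did not pass between the graft and BM-MSCs (log2 difference -0.96, adjusted p = 0.326). Osteoblast markers, 4 genes, summed to 204872 to 256282 in BM-MSCs, 5583 to 25992 in P-SSCs and 49153 to 67332 in the graft. Their part in the Serpinh1 and collagen values was not tested.

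Serping1 (C1 inhibitor, which stops complement, kallikrein and factor XII) did not pass in any comparison. It had 198998, 281808 and 175210.0 in BM-MSCs, 147079, 186552 and 105263 in P-SSCs, and 97008, 145740.0, 150822 and 71719.7 in graft BM-MSCs. The graft lay below BM-MSCs without overlap (log2 difference -0.95, 95% confidence interval from -1.60 to -0.29, adjusted p = 0.0829), by -0.42 relative to the median gene. The difference was -0.077 after quantile normalization (adjusted p = 0.831) and -0.012 after the GC correction (adjusted p = 0.992). Among the proteases it inhibits, C1s1 was higher in the graft (10728 to 11976) than in BM-MSCs (4078 to 7384), with a log2 difference of 1.04 (adjusted p = 0.0307). C1s1 had 10774 to 19710 in P-SSCs and did not pass between the graft and P-SSCs (-0.41, adjusted p = 0.279). C1ra had 10265 to 16554 in the graft and 13512 to 20901 in BM-MSCs, and did not pass between them (-0.44, adjusted p = 0.322). Serpini1 (neuroserpin, an inhibitor of Plat) was at 0 in all 4 graft libraries, against 83.1, 157 and 49.4 in P-SSCs and 71.0, 64.3 and 0.986 in BM-MSCs. It was lower in the graft than in P-SSCs (at least 31.9-fold against the floor, adjusted p = 0.00814), a call that was lost when P-SSC 4 alone stood for the periosteum, the periosteal library that shared the GC-rich profile of the graft (adjusted p = 0.163).

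**Figure D3:**
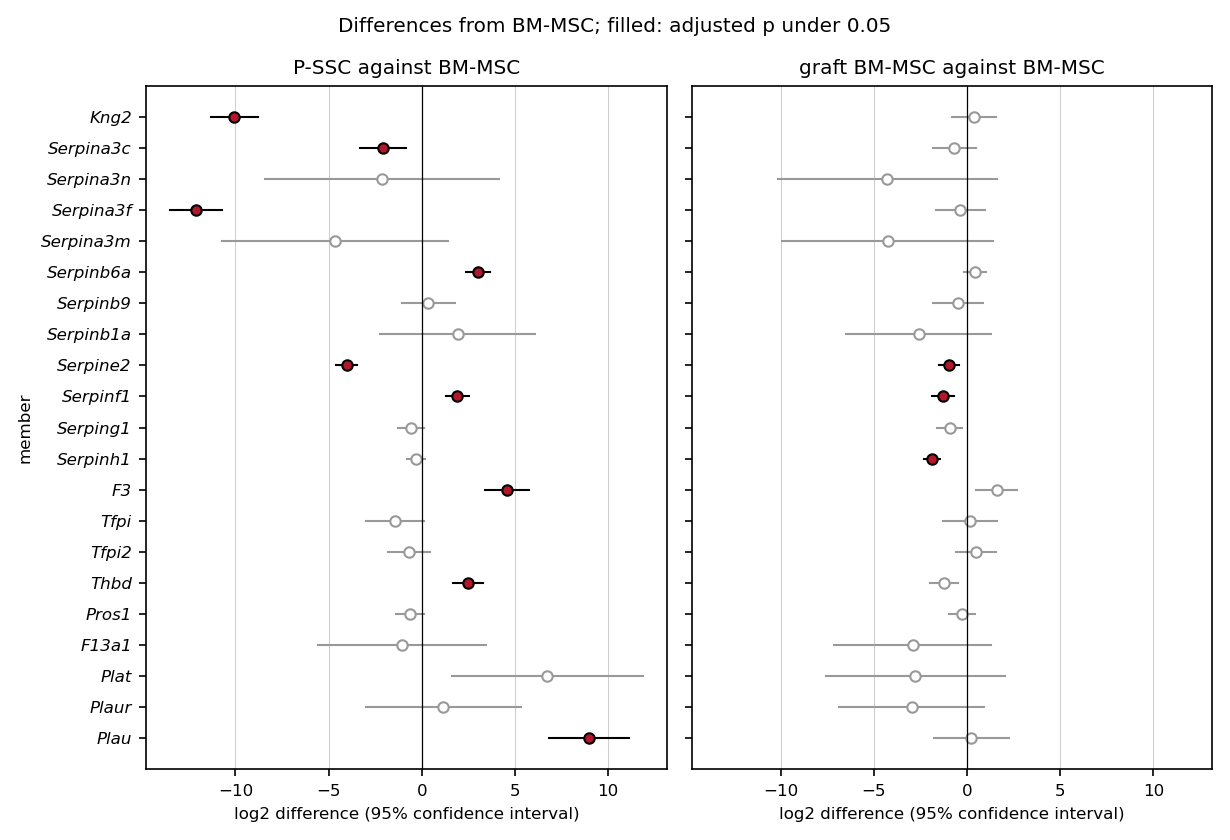
Points are log2 differences from BM-MSCs of 21 genes with a mean of at least 100, for P-SSCs on the left and graft BM-MSCs on the right, and bars are 95% confidence intervals from limma. Filled points passed at an adjusted p under 0.05, and in the right panel only Serpine2, Serpinf1 and Serpinh1 are filled, all left of 0. Kng1, Serpina3g, Serpina12 and A2m are left out, since they were known beforehand to be among the largest changes of the graft.

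At the start of clotting, tissue factor was highest in periosteal cells. F3 had normalized read counts of 1635, 1762 and 4545 in P-SSCs, 84.6, 134 and 83.8 in BM-MSCs, and 178, 310.3, 323 and 423 in graft BM-MSCs. The 3 groups did not overlap, and the graft lay between the other two. F3 was 23.7-fold higher in P-SSCs than in BM-MSCs (log2 difference 4.57 ± 0.54, SE, adjusted p = 0.000376) and 7.97-fold lower in the graft than in P-SSCs (-2.99 ± 0.50, adjusted p = 0.00216). The difference between the graft and BM-MSCs was 1.57 ± 0.50 (adjusted p = 0.0887), and it passed with DESeq2 (adjusted p = 0.0127), after the GC correction (2.36, adjusted p = 0.0278) and without P-SSC 4 (adjusted p = 0.0453). The inhibitors of the tissue factor pathway did not pass. Tfpi had 587, 322 and 606 in BM-MSCs, 204, 182 and 153 in P-SSCs, and 1386, 252, 264 and 955 in the graft. Tfpi2 had 547, 259 and 468 in BM-MSCs, 312, 319.7 and 159.9 in P-SSCs, and 914, 557, 533 and 384 in the graft. For both genes the graft values lay above those of P-SSCs without overlap, which 26.6% of all genes tested did in 1 direction or the other.

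The receptors that control thrombin were also highest in periosteal cells. Thbd (thrombomodulin, the receptor that turns thrombin into an activator of protein C) had 13818, 12765 and 15013 in P-SSCs, 3114, 2531 and 1901 in BM-MSCs, and 1011, 599, 1750.3 and 1113 in graft BM-MSCs. The 3 groups did not overlap. Thbd was 5.61-fold higher in P-SSCs than in BM-MSCs (log2 difference 2.49 ± 0.36, SE, adjusted p = 0.00112) and 13.3-fold lower in the graft than in P-SSCs (-3.73 ± 0.34, adjusted p = 5.74e-05). Between the graft and BM-MSCs the difference of -1.24 ± 0.34 just missed the threshold (adjusted p = 0.0501). It also missed it in 17 of 23 alternatives and passed in the others. Those included DESeq2, median centring and the fit without graft BM-MSC 3 (-1.49, adjusted p = 0.0201). It was -0.34 after the GC correction (adjusted p = 0.600). Procr, the protein C receptor that works beside Thbd, had 14369, 22855 and 15391 in P-SSCs and at most 98.2 in any marrow library, and it passed in both comparisons with P-SSCs (log2 difference 7.64 over BM-MSCs, adjusted p = 0.0169, and -10.88 for the graft, adjusted p = 0.000951). The thrombin receptor F2r had 712 to 1064 in P-SSCs, 0 to 106 in BM-MSCs and 195 to 764 in the graft. F2r was higher in P-SSCs than in BM-MSCs (log2 difference 5.45, adjusted p = 0.047). The graft overlapped P-SSCs and did not pass against them (-0.97, adjusted p = 0.660). Another thrombin receptor, F2rl3, had 46.0 to 74.9 in BM-MSCs, 0 to 56.0 in P-SSCs and 0 in the graft. It did not pass between P-SSCs and BM-MSCs (-4.05, adjusted p = 0.139). Thbd and Procr are known markers of vessel lining too. Of 6 endothelial markers 4 had rows. They summed to 3426 to 7106 in P-SSCs, 51.3 to 330.1 in BM-MSCs and 0 to 128 in the graft. The P-SSC sums were mostly Tek (3254 to 6869), with Cdh5 at 2.08 to 58.6. Esam was at 157 to 334 in P-SSCs and 0 to 306 in BM-MSCs, and Emcn at 0 and at 24.3 to 81.5. The part of these markers in the Thbd and Procr values was not tested.

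Pros1 (protein S, the cofactor of activated protein C) and F13a1 (the A subunit of factor XIII) did not pass in any comparison. Pros1 had 6654, 3859 and 3380.0 in BM-MSCs, 3495, 2287 and 2926 in P-SSCs, and 4709, 3775, 2367 and 4321 in graft BM-MSCs, and its groups overlapped. Its relative Gas6, another vitamin K-dependent protein, had 13278 to 20319 in BM-MSCs and 64927 to 107636 in the graft. In P-SSCs Gas6 had 568, 529.9 and 20685, the last in P-SSC 4, and it was higher in the graft than in P-SSCs (log2 difference 5.53, adjusted p = 0.00401). F13a1 had 243, 619 and 333 in BM-MSCs, 137, 227 and 179 in P-SSCs, and 18.1, 495, 584 and 0 in the graft. Macrophages make much F13a1. Their 7 markers summed to 4392 to 16573 in BM-MSCs, 455 to 2511 in P-SSCs and 1374 to 13205 in the graft, mostly Lyz2, with Adgre1 at 0 in the graft, and their part in the F13a1 values was not tested.

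**Figure D4:**
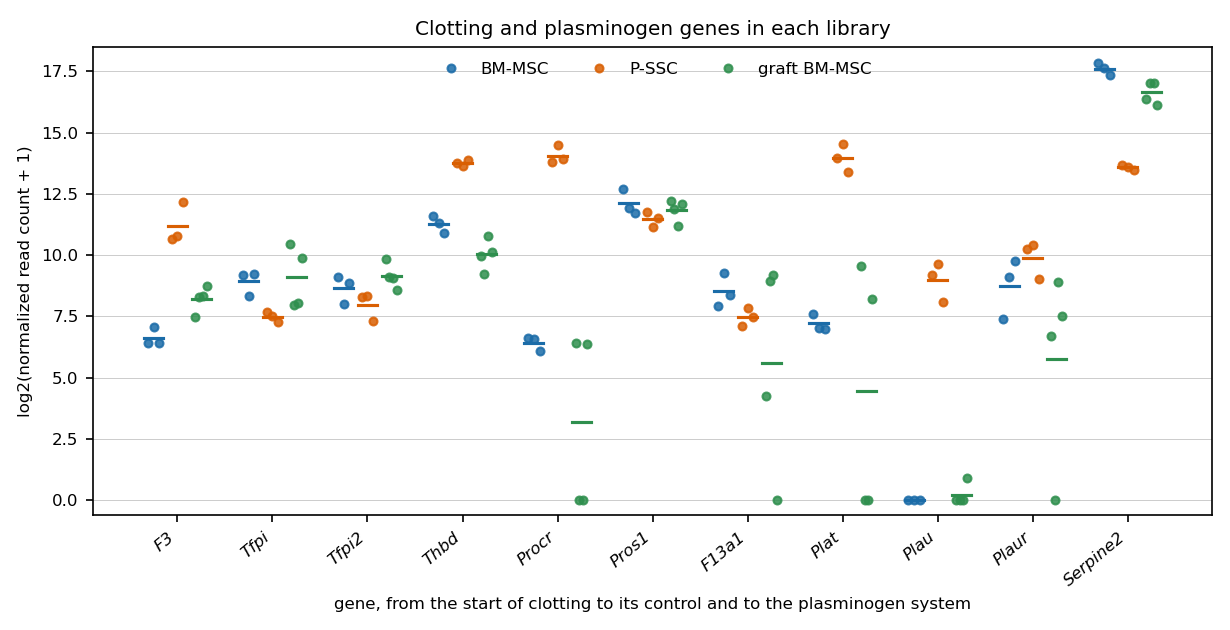
Points are libraries and bars are group means of log2(normalized read count + 1) for clotting genes and, on the right, genes of the plasminogen system with Serpine2. F3, Thbd, Procr, Plat and Plau are highest in all 3 P-SSC libraries, Serpine2 is lowest there, and Plat, Plaur, Procr and F13a1 each have graft libraries at 0.

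The activators of plasminogen were expressed mainly by periosteal cells. Plau (urokinase) had normalized read counts of 579.6, 791 and 272 in P-SSCs, 0 in the 3 BM-MSC libraries, and 0, 0, 0 and 0.863 in the graft, where the last value is 1 read. P-SSCs were at least 173-fold above the floor of BM-MSCs (adjusted p = 0.000232) and at least 181-fold above that of the graft (adjusted p = 0.000123). Plat (tissue plasminogen activator) had 15796, 23688 and 10641 in P-SSCs, 193, 131 and 127 in BM-MSCs, and 745, 0, 0 and 294 in the graft. The ratio of group means was 111-fold between P-SSCs and BM-MSCs, without overlap, but this difference did not pass in the fit that shares its spread with the graft (adjusted p = 0.116). The graft was lower than P-SSCs (log2 difference -9.52 ± 2.17, SE, adjusted p = 0.0119), and that call was lost in 6 of 24 alternatives, among them the fit without P-SSC 2+5 (adjusted p = 0.0533) and edgeR (adjusted p = 0.0506). Plaur, the urokinase receptor, had 1228, 1360.5 and 524 in P-SSCs, 165, 545 and 872 in BM-MSCs, and 102, 0, 474 and 179.5 in the graft, and did not pass.

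Of 8 tested partners of the plasminogen system, 3 were higher in P-SSCs than in BM-MSCs and 0 lower, with 5 that did not pass. Over all genes tested, 4.57% were higher and 4.58% lower. The list was chosen with earlier results known, so nothing is read from the count. Anxa2 and S100a10, which form a docking site for plasminogen and Plat, had 49409 to 93970 and 18569 to 32486 in P-SSCs. In BM-MSCs they had 12167 to 17988 and 3653 to 4252, and in the graft 8923 to 18607 and 3154 to 4690.0. Both passed between P-SSCs and BM-MSCs (log2 differences 2.24 and 2.60, adjusted p = 0.00138 and 0.000109) and between the graft and P-SSCs (-2.52 and -2.67, adjusted p = 0.000323 and 4.5e-05). Lrp1, the receptor that clears complexes of serpins and proteases, was higher in P-SSCs than in BM-MSCs (1.41, adjusted p = 0.0154) and lower in the graft than in P-SSCs (-1.34, adjusted p = 0.00914). The plasminogen receptor Plgrkt, at 435 to 1251 over all libraries, and the clearance receptor Vldlr, at 0 to 1368, did not pass in any comparison. 

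Of the 80 genes in the wider list of clotting factors, kinin, plasminogen and protease genes, 50 had rows and 46 were tested. Between P-SSCs and BM-MSCs 10 had higher and 4 had lower levels in P-SSCs (4.57% and 4.58% of all genes tested). In the graft 3 were higher and 13 lower than in P-SSCs (6.08% and 12% of all genes). Against BM-MSCs, the graft had 2 higher (Prss23, 4.74-fold, adjusted p = 0.00814, and C1s1) and 5 lower (F10, F2rl3, Cd109, Col1a1 and Col1a2), where 2.61% and 5.06% of all genes were. Among the other protease genes, Htra3 (9.60-fold, adjusted p = 0.0286) and Prss23 (2.84-fold, adjusted p = 0.0491) were higher in P-SSCs than in BM-MSCs and Hpn was lower (adjusted p = 0.0222), with Htra3 at 46869 in P-SSC 4 and at most 4531 in the other P-SSC libraries. Ctsl (cathepsin L) was 1.74-fold lower in the graft than in P-SSCs (adjusted p = 0.0407), and Mrc2, a collagen receptor, was also lower (2.43-fold, adjusted p = 0.0308). Ctsb (25986 to 45842 over all libraries), Ctsk (3375 to 9680), Htra1 (985 to 17407, the highest in P-SSC 4), C1ra and Pnpla2 averaged over 1000 and did not pass in any comparison. Of the 22 coagulation factors and their helpers, 12 had rows and 9 were tested. Those that stood above 1000 in mean were Procr, Gas6, Ggcx, Mcfd2 and Lman1, and F10 passed in both comparisons with BM-MSCs at 28.6 to 75.2 there and at most 1.04 elsewhere.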

How the data were processed

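RNA of sorted cells was reverse transcribed after poly-A selection with random primers and sequenced, and the strand setting was not given. The deposited table holds a normalized signal, which the authors made by dividing read counts per gene by a DESeq2 size factor for each library, and every value came back to a whole number of reads (within 0.01). The submitters' processing notes name cutadapt 1.15, STAR 2.5, Subread 1.4.6 with featureCounts, DESeq2 1.26.0 and GRCm39, while the study's methods give GRCm38 as the genome, so coordinates printed here are those of the GRCm38 annotation (GENCODE), matched by gene ID for 37 of 37 genes, and are not claimed to be those of the mapping.

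Differences were tested on log2(value + 1) with limma 3.58.1 in R 4.3.3, on 13644 genes with a mean of at least 10, with 1 mean per group, all 10 libraries in the fit and a trended prior, two-sided, with Benjamini-Hochberg adjustment over all genes tested. Fold changes are on that scale and understate low genes. Where a group lay at or under 3 reads per library, the ratio of means was set against that floor and is a lower bound, which covers counting error only. Levels per kb used the longest transcript. Per the study's methods no mouse entered more than 1 replicate of a group's RNA.

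Genes with a mean of at least 100 are given by library, others where they passed, and the rest by range, except 1 gene that is not reported here. Genes of the wider list were named where they passed or had a mean of at least 1000. The genes and lists were chosen with earlier results of these data known. Alternatives were other pseudocounts, filters, scalings and fits, a GC correction, edgeR 4.0.16 and DESeq2 1.42.0 on the recovered reads, and leaving out each library. Promoters came from RefSeq (GRCm38.p6). The scripts were tested on simulated data.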

Additional observations from a re-analysis of the deposited data

Results flagged for a closer look

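Of 25 genes checked for a library far from the rest of its group (Dixon's criterion, groups of 4 libraries), 1 passed, and chance passes about 1 in 20 groups. Plau had a normalized read count of 0.863, which is 1 read, in graft BM-MSC 4 and 0 in the other 3 graft libraries.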

How the results depend on the processing

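Of the 16, 5 and 16 genes called between graft BM-MSCs and P-SSCs, graft BM-MSCs and BM-MSCs, and P-SSCs and BM-MSCs, leaving out 1 library gave 15 to 17, 4 to 6 and 15 to 16. Between graft BM-MSCs and BM-MSCs the count was 3 with the GC correction, 3 with edgeR, 9 with DESeq2, 2 with a term for the split in GC-rich genes and 3 at an adjusted p under 0.01. Serpina3f between the same groups turned to 0.49 with the GC correction and leaving out 1 library gave -0.65 to 0.084 (the latter without graft BM-MSC replicate 4), and Kng2 to -0.72 with the term for the split. The cause was not tested. Same-numbered libraries did not deviate together (5 pairs, r from -0.019 to 0.030), and no pairing was assumed. Of these pairs only BM-MSC 1 and P-SSC 1 were both at steady state, so shared mice cannot be judged from them. With the replicate block limma called 9, 0 and 5 genes in the 3 comparisons (7 at an unadjusted p under 0.05 where it called 0). An alternative that left zeros out was chosen after seeing the data. Over all genes, the split of higher and lower calls between graft BM-MSCs and P-SSCs was 830 and 1634, against 1247 and 1241 after quantile normalization and 1567 and 985 after the GC correction. Between graft BM-MSCs and BM-MSCs it was 356 and 690, against 588 and 435, and 877 and 352. All genes called numbered 2464, 1046 and 1248, against 1531, 316 and 619 with edgeR, 2908, 1947 and 1515 with DESeq2 and 269, 3 and 54 with the replicate block. With the term for the split in GC-rich genes, 40 genes were called between graft BM-MSCs and BM-MSCs. Differences of the graft near 1 on the log2 scale are limited by scaling. Some larger ones are too, as for Serpinh1 (-1.87 and -1.56), where the GC correction lost both calls. Genes near the floor of 3 reads are limited by depth.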
